A study of Mus musculus with 10 samples.

Results

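Cytochrome P450 families 1 to 3 are the haem enzymes of the endoplasmic reticulum that oxidise drugs, pollutants, steroids, bile acids and fatty acids. The genes were taken by symbol: Cyp, a family number of 1, 2 or 3, a subfamily letter and a gene number, with pseudogenes left out. This gave 54 genes of the 29657 in the deposited table. They receive electrons from P450 reductase and cytochrome b5, and hepatocytes hold most of them, many in the cells around the central vein. In mouse liver, the nuclear receptors CAR (Nr1i3) and PXR (Nr1i2), the aryl hydrocarbon receptor AHR and the hepatocyte factor HNF4A control many of these genes, and the pulse pattern of growth hormone sets some of them to a male or a female level.

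Liver RNA was sequenced from 10 C57BL/6 mice, all fed CDAHFD for 8 weeks. This choline-deficient, high-fat diet induces steatosis, inflammation and scarring of the liver in mice. Controls were 5 mice injected with AAV8-NC, an adeno-associated virus serving as negative control. Another 5 mice received AAV8-TBG-galectin-3, labelled as a knockdown of galectin-3 in hepatocytes, where TBG is a promoter active in hepatocytes. The labels give neither the insert of that vector nor the age of the mice, and no group on a normal diet was analysed here, so no level below can be set against a healthy liver. Values are FPKM, read fragments corrected for the length of the transcript and for the size of the library.

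The targeted gene, Lgals3, is also on the list of lipid-associated macrophage markers used here, so bulk liver RNA does not give its level in hepatocytes. In bulk RNA, Lgals3 did not follow its label, with 70.8 ± 22.9 FPKM in the controls and 74.2 ± 20.1 FPKM in the other group (SD, n = 5 each, exact two-sided permutation p = 0.825, where the smallest possible was 0.00794). That group is therefore called labelled knockdown, and every direction below rests on the labels. Library totals ran from 370846 to 391531 FPKM in the controls and from 389534 to 422302 FPKM in the labelled knockdown libraries; the file gives no counts, so read depth is unknown. For each library, the departure of log2(FPKM + 1) from the gene's mean over the 10 libraries was fitted on log2 transcript length. The slope of this departure was 0.03 ± 0.01 in the controls and -0.03 ± 0.02 in the labelled knockdown libraries, with no overlap. The centring makes the 2 means mirror each other, so only the difference between the groups carries information. The part of this slope in single results was tested by removing the length trend, and the calls it ended are named with the genes; Cyp2d13 had no length in the annotation used, so this could not be run on it. All 7 hepatocyte markers were measured, and 1 rose, Ttr, and 2 fell, Apob and Hnf4a, each without overlap between the groups. The summed level of the 7 was 34900 to 39089 FPKM in the controls and 31262 to 39674 FPKM in the labelled knockdown libraries. Most of this sum was Alb, so it says little of the other markers.

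Control 5 stood apart for these genes. The filter on low values kept 43 P450 genes. Control 5 was the lowest of the 10 libraries in 18 of them and the highest in 8. This is 60.5% of them, against 30.7% of all 13471 tested genes. Labelled knockdown 5 was lowest or highest in 34.9% of the P450 genes. Over all tested genes, labelled knockdown 1 (32.3%) and labelled knockdown 5 (33.2%) were lowest or highest more often than control 5. Because control 5 stood apart for the P450 genes, the counts of called genes below are also given without it. That choice was made on the values of these same genes. The p-values without control 5 do not allow for the choice and are given as a description only.

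The stretches of promoter shown here belong to the genes on which the results turn: Cyp2a4 and Cyp2a5, which differed in control 5, the called Cyp2a22 and Cyp3a25, Cyp2c37 and Cyp2c50, which were low in control 5 (Cyp2c54 had no entry), and Cyp3a44, the gene with the largest ratio above the other controls there. Each is the 150 bases before the annotated start, from RefSeq on GRCm38.p6, written 5′ to 3′ on the gene's strand. Capitals mark a match to CAAAGTNC or its reverse complement, a short form of the direct repeat that HNF4A binds; these letters were chosen after the promoters had been read.
Cyp2a4: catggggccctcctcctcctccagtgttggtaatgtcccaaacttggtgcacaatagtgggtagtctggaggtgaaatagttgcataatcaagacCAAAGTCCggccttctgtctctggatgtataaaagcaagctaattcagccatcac
Cyp2a5: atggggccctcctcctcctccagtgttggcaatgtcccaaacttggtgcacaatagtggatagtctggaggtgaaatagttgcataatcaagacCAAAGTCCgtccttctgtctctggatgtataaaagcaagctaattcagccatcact
Cyp2a22: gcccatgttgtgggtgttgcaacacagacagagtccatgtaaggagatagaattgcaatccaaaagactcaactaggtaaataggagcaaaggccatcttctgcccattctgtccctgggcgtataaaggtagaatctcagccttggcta
Cyp2c37: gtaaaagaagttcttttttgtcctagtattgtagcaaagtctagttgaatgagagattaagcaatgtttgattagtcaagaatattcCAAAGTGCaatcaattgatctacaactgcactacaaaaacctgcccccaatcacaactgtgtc
Cyp2c50: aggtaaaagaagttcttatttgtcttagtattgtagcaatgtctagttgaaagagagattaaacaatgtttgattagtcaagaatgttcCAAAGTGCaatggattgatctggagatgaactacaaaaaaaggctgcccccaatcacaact
Cyp3a25: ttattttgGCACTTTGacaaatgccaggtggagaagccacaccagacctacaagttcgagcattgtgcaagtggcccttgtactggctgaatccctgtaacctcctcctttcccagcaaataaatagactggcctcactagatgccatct
Cyp3a44: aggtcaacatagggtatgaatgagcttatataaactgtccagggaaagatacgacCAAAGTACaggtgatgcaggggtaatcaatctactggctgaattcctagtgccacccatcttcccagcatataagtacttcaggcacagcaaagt

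The Cyp2a4 stretch lies at chr7:26307042-26307191 and that of Cyp2a5 at chr7:26835189-26835338, both on the plus strand, and the Cyp2a22 stretch at chr7:26939387-26939536 on the minus strand. The Cyp2c37 and Cyp2c50 stretches lie on the plus strand at chr19:39992274-39992423 and chr19:40089529-40089678. Those of Cyp3a25 and Cyp3a44 lie on the minus strand at chr5:146009619-146009768 and chr5:145805875-145806024. When aligned, the Cyp2a4 and Cyp2a5 stretches were identical in 96.7% of columns and those of Cyp2c37 and Cyp2c50 in 84.5%, whereas Cyp2a4 and Cyp2a22 were identical in 55.3% and Cyp3a25 and Cyp3a44 in 58.7%.

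Letters were counted on both strands of the 250 bases before the annotated start, a longer window than the 150 bases shown. The HNF4-type letters CAAAGTNC were present in 17 of the 46 P450 genes with a promoter entry, against 3.92% of 27025 genes. They were found in members of the Cyp2a, Cyp2c, Cyp2d and Cyp3a subfamilies and are absent from the Cyp2a22 stretch. The TATA box, TATAAA, was present in 22 of the 46, against 14.3% of all genes, and the C/EBP-type letters TTGCNNAA in 12, against 10.8%. The core letters bound by AHR, GCGTG, were present in 6, among them Cyp1a1 and Cyp1b1, against 30.9% of all genes, and the STAT5-type letters TTCNNNGAA in 1, against 8.13%. Related genes share promoter sequence, so these counts are not counts of independent promoters. A match is a run of letters in this window and was not tested as a binding site.

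These 54 genes together held 5890 ± 778 FPKM in the controls and 6881 ± 1083 FPKM in the labelled knockdown libraries (SD, n = 5 each), or 1.55 ± 0.234% and 1.72 ± 0.289% of all FPKM. The ranges overlapped, from 4806 to 6963 FPKM and from 5827 to 8517 FPKM. A single gene made up much of this sum. Cyp2e1, which oxidises ethanol, acetone and other small molecules, took 44.0 ± 7.05% of it in the controls and 48.4 ± 4.26% in the labelled knockdown libraries. Averaged over the 10 libraries, Cyp2e1 stood at 2995 FPKM, followed by Cyp2d26 at 502 FPKM, Cyp3a11 at 424 FPKM, Cyp2d10 at 321 FPKM, Cyp2f2 at 236 FPKM, Cyp2a5 at 231 FPKM and Cyp1a2 at 201 FPKM. The 11 genes that were not tested (Cyp2b10, Cyp2b19, Cyp2c65, Cyp2d12, Cyp2d34, Cyp2j8, Cyp2j11, Cyp2j13, Cyp2s1, Cyp2t4 and Cyp3a16) reached at most 0.709 FPKM in any library, in Cyp2d12. Among them is Cyp2b10, the standard mouse target of CAR, which reached 0.511 FPKM in control 5 and was listed at 0 in 4 of 5 labelled knockdown libraries.

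Between the groups, 5 of the 43 tested P450 genes differed. Cyp2d13, Cyp2a22, Cyp2c39 and Cyp3a25 rose and Cyp3a13 fell in the labelled knockdown libraries (limma on log2(FPKM + 1), Benjamini-Hochberg adjusted p under 0.05 over all tested genes). This is 11.6% of the P450 genes, below the 16.8% called among all tested genes; the 4 that rose compare with 7.13% called higher and the 1 that fell with 9.65% called lower. Other scalings changed that balance over all genes, from 960 higher and 1300 lower to 1240 and 1060 with median-of-ratios scaling. More of the P450 genes had a fold change above 0 than below, 31 against 12 with a median log2 fold change of 0.22, while over all tested genes 5976 were above and 7495 below, with a median of -0.04. Without control 5, 5 rose (11.6%, with 6.99% of all genes) and 3 fell (6.98%, with 9.46%), and the median was 0.19. The number that rose was 1 without control 2 or control 3, and 2 without control 4 or labelled knockdown 1. Without the filter on low values, Cyp2d13 alone of the 5 passed.

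**Figure D1:**
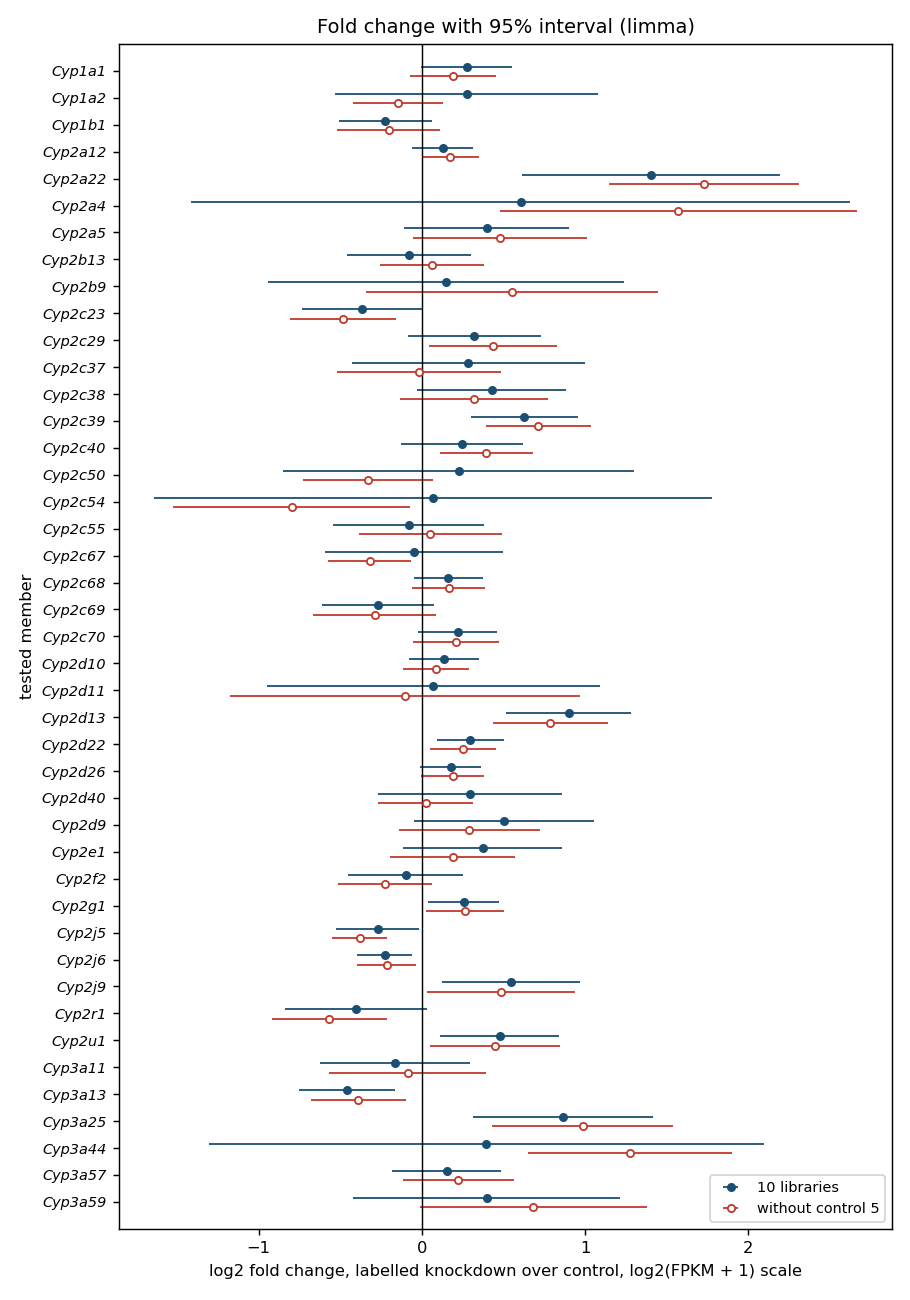
Log2 fold change of labelled knockdown over control for each of the 43 tested P450 genes, on the log2(FPKM + 1) scale, with the 95% interval from limma, for all 10 libraries (filled) and without control 5 (open). Most points lie above 0, and Cyp2a4, Cyp2c54 and Cyp3a44 have the widest intervals with all libraries, which narrow without control 5.

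In the authors' deposited table, 7 of the 54 P450 genes had a q-value under 0.05 (13.0%, against 8.84% of all genes in the table) and 2 were marked as significant (3.70%, against 1.34%). These shares include genes that failed the filter on low values, which 43 of the 54 P450 genes but only 13471 of all 29657 genes passed. They are therefore not comparable with the shares of tested genes above. Of the P450 genes called here by limma, Cyp2d13, Cyp2c39 and Cyp3a25 had an authors' q-value under 0.05. Cyp2a22 (0.0801) and Cyp3a13 (0.0836) did not. Cyp2d22, Cyp2j9 and Cyp2u1 were under it there but were not called here.

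The family 1 genes are the classic targets of AHR. Cyp1a2, which metabolises caffeine and aromatic amines, read 215, 265, 212, 225 and 52.5 FPKM in controls 1 to 5 and 232, 224, 212, 219 and 156 FPKM in labelled knockdown libraries 1 to 5. The 2 groups overlapped, with control 5 far below all other libraries, and the log2 fold change of 0.28 (SE 0.37, adjusted p = 0.634) became -0.14 without it. Cyp1a1, at 0.470 ± 0.247 and 0.769 ± 0.231 FPKM, and Cyp1b1, at 0.949 ± 0.236 and 0.679 ± 0.286 FPKM, did not pass the test, with adjusted p of 0.160 and 0.254. Ahr itself, at 7.57 ± 0.795 and 8.17 ± 1.0 FPKM, had a log2 fold change of 0.10 (adjusted p = 0.502).

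In the Cyp2a subfamily, which oxidises coumarin, nicotine and steroids, all 4 genes had a fold change above 0 and 1 rose. Cyp2a22 read 17.9, 5.87, 9.65, 6.37 and 29.9 FPKM in controls 1 to 5 and 43.9, 31.0, 29.9, 31.4 and 27.5 FPKM in the labelled knockdown libraries. Only control 5 reached the labelled knockdown range; the other controls lay below it. The log2 fold change was 1.41 (SE 0.36, adjusted p = 0.0260) and 1.73 without control 5 (adjusted p = 0.00934). The call was lost without control 2, 3 or 4 or labelled knockdown 1, with adjusted p of 0.0599, 0.0596, 0.0554 and 0.0594. Cyp2a22 and Cyp2a12 share 9.40% of the 75-base stretches of the Cyp2a22 transcript, so reads could be split between them, and Cyp2a12, a testosterone hydroxylase, stood at 124 ± 12.0 and 136 ± 8.34 FPKM (log2 fold change 0.13, adjusted p = 0.315).

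Cyp2a4, a steroid hydroxylase that is higher in female than in male mouse liver, read 28.9, 8.65, 13.1, 6.10 and 371 FPKM in the controls and 87.7, 33.9, 38.7, 46.4 and 14.0 FPKM in the labelled knockdown libraries. Control 5 was 26.1-fold above the mean of the other controls. That library also turned the direction of the means: the mean fell from 85.5 to 44.2 FPKM, while the log2 fold change was 0.61 (SE 0.92, adjusted p = 0.680), and 1.57 without control 5 (adjusted p = 0.0530). Cyp2a5, the coumarin hydroxylase, read 303, 198, 126, 146 and 242 FPKM in the controls and 246, 331, 292, 234 and 191 FPKM in the labelled knockdown libraries, and its log2 fold change of 0.40 did not pass (SE 0.23, adjusted p = 0.252). Its promoter stretch is close to identical to that of Cyp2a4, yet control 5 was within the range of the other controls for Cyp2a5. Cyp2a4 shares 22.1% of its 75-base stretches with other genes, mainly Cyp2a5, so their split is uncertain.

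Of the 4 Cyp2b genes, which include classic targets of CAR, 2 were tested and neither passed. Cyp2b9 was the highest, at 26.8 ± 22.8 and 25 ± 12.8 FPKM (log2 fold change 0.15, SE 0.50, adjusted p = 0.858, and 0.55 without control 5, adjusted p = 0.365). It read 64.7 FPKM in control 5, against 7.38 to 26 FPKM in the other controls and 13.1 to 46.1 FPKM in the labelled knockdown libraries. Cyp2b13 ranged from 0.190 to 1.39 FPKM, and its adjusted p was 0.786.

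The Cyp2c subfamily, which oxidises arachidonic acid, drugs and bile acids, had 14 genes, of which 13 were tested, 1 rose and 9 were above 0. Cyp2c39 read 3.15, 1.88, 1.98, 1.81 and 3.23 FPKM in the controls and 5.48, 4.58, 3.20, 4.02 and 3.91 FPKM in the labelled knockdown libraries. The groups met at their edges, labelled knockdown 3 lying just under control 5. The log2 fold change was 0.63 (SE 0.15, adjusted p = 0.0208), and the call was lost without control 2 (adjusted p = 0.0537) or control 3 (0.0515). The Cyp2c genes with the highest means did not pass the test with all libraries. Cyp2c68 stood at 150 ± 18.9 and 167 ± 9.44 FPKM (adjusted p = 0.257), Cyp2c70, which hydroxylates bile acids in the mouse, at 138 ± 22.7 and 159 ± 9.28 FPKM (0.189), and Cyp2c67 at 77.6 ± 26.6 and 70.8 ± 9.62 FPKM (0.910). For Cyp2c67 the log2 fold change was -0.05, and -0.32 without control 5 (adjusted p = 0.0800). Cyp2c68 and Cyp2c67 share 28.5% and 36.0% of their 75-base stretches with other genes, mainly Cyp2c40, so the split of reads is uncertain. Cyp2c23, an epoxygenase of arachidonic acid, stood at 99.4 ± 24.6 and 75.5 ± 10.1 FPKM, with a log2 fold change of -0.36 (adjusted p = 0.154) and of -0.48 without control 5 (adjusted p = 0.0469).

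Cyp2c37, Cyp2c54 and Cyp2c50 follow each other on chromosome 19 in the GENCODE annotation and moved together in control 5. They share 13.8%, 14.1% and 12.4% of their 75-base stretches with other genes. Cyp2c37 and Cyp2c54 share the most with Cyp2c50, and Cyp2c50 with Cyp2c54. Reads could be split between them, so they are not separate readings. Cyp2c54 read 26.3, 25.4, 32.3, 33.8 and 0.495 FPKM in the controls and 7.31, 27.2, 19.5, 11 and 26.4 FPKM in the labelled knockdown libraries. Control 5 was 59.4-fold below the mean of the other controls; the log2 fold change of 0.07 (adjusted p = 0.959) was -0.80 without it (adjusted p = 0.116). Cyp2c50 read 131, 113, 139, 130 and 17.7 FPKM against 70.8, 152, 112, 97.0 and 91.4 FPKM, and its log2 fold change turned from 0.22 to -0.33 without control 5, with adjusted p of 0.781 and 0.219. Cyp2c37 read 56.4, 47.9, 54.6, 52.5 and 17.9 FPKM against 35.2, 94.0, 58.2, 45.1 and 43.8 FPKM, with a log2 fold change of 0.28 (adjusted p = 0.575) and of -0.02 without control 5. For all 3 genes, controls 1 to 4 lay close together and the labelled knockdown libraries spread more widely, labelled knockdown 1 being their lowest.

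All 7 tested Cyp2d genes, a subfamily that oxidises many amine drugs, were above 0, and 1 rose. Cyp2d13 read 37.3, 34.9, 35.0, 30.0 and 22.9 FPKM in the controls and 71.8, 70.8, 67.9, 40.1 and 55.1 FPKM in the labelled knockdown libraries, and every labelled knockdown library was above every control. The log2 fold change was 0.90 (SE 0.17, adjusted p = 0.0107), and the call held whichever of the 10 libraries was left out. The deposited table lists transcripts of Cyp2d13 (ENSMUSG00000118516) as subject to nonsense-mediated decay or as protein coding with loss of function, and its share of sequence with the other Cyp2d genes was not analysed here. Groups that did not overlap, with the labelled knockdown libraries above, were seen in Cyp2d13 and Cyp2j9, 4.65% of the tested P450 genes, against 5.66% of all tested genes. Without control 5 this held for 4 genes, Cyp2a22 and Cyp2c39 being added (9.30%, against 7.67%).

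The most abundant Cyp2d gene, Cyp2d26, stood at 471 ± 34.8 and 533 ± 34.4 FPKM (log2 fold change 0.18, SE 0.09, adjusted p = 0.168), and Cyp2d10 at 306 ± 30.5 and 336 ± 30.6 FPKM (0.14, adjusted p = 0.356, and 0.08 without control 5). Cyp2d10 shares 26.7% of its 75-base stretches with other genes, mainly Cyp2d11, so the split of its reads is uncertain. Cyp2d22 was just outside the threshold, at 49.3 ± 5.98 and 60.6 ± 5.02 FPKM (log2 fold change 0.30, SE 0.09, adjusted p = 0.0509). Cyp2d9, a steroid hydroxylase that is higher in male than in female mouse liver, read 122.6, 106, 119, 89.1 and 51.2 FPKM against 91.4, 122, 165, 116 and 192 FPKM (0.50, adjusted p = 0.187). Control 5 was again the lowest of all libraries for Cyp2d9, and without it the log2 fold change was 0.29 (adjusted p = 0.323).

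Cyp2e1 read 3412, 2568, 2942, 2693 and 1525 FPKM in the controls and 2734, 4438, 3924, 3145 and 2567 FPKM in the labelled knockdown libraries. The groups overlapped, control 5 being lowest, and the log2 fold change of 0.37 (SE 0.22, 95% interval -0.12 to 0.86) did not pass the test (adjusted p = 0.267). Without control 5 it was 0.19 (adjusted p = 0.474). Cyp2f2, known for its oxidation of naphthalene and for its level in periportal hepatocytes, stood at 244 ± 47.0 and 227 ± 44.2 FPKM, with a log2 fold change of -0.10 (adjusted p = 0.698) and of -0.23 without control 5 (adjusted p = 0.247).

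**Figure D2:**
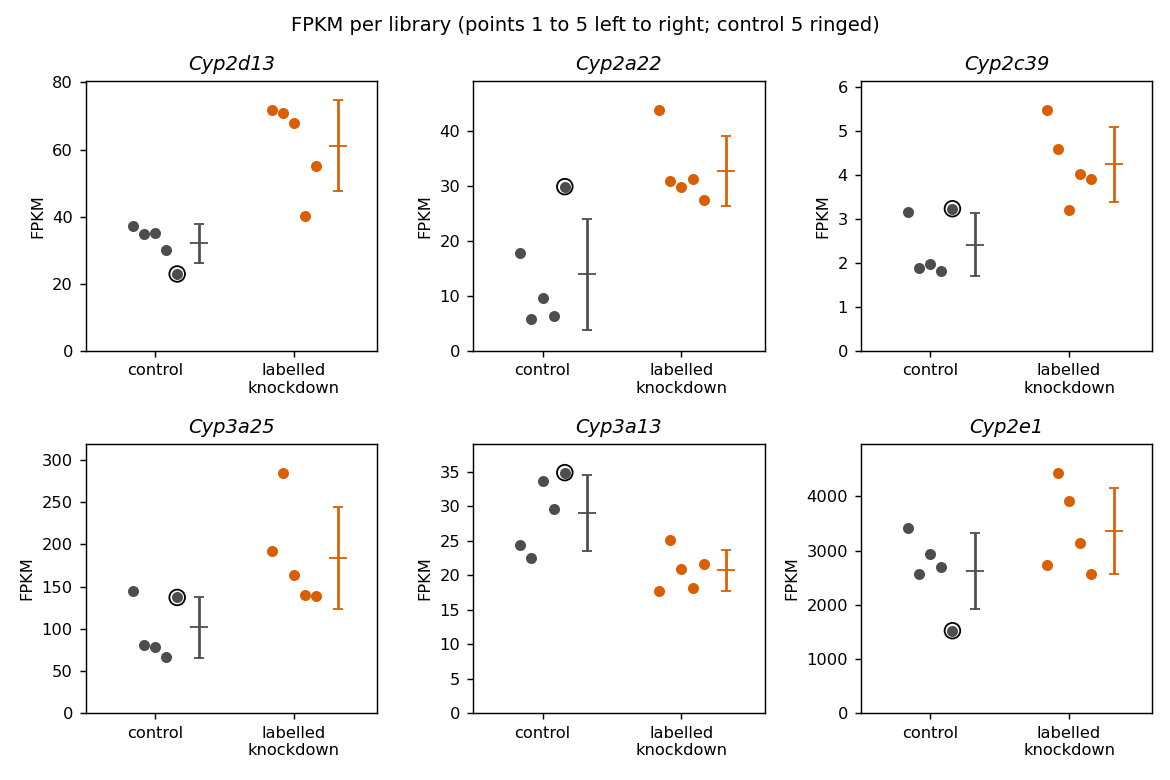
FPKM in each library for the 5 P450 genes that passed the test and for Cyp2e1, with controls in grey, labelled knockdown libraries in orange, control 5 ringed, and the mean ± SD (n = 5) beside the points. Cyp2d13 is the only one of the 6 in which the groups do not overlap; Cyp3a13 is the only one with a lower mean in the labelled knockdown libraries.

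The Cyp2j genes, epoxygenases of arachidonic acid, did not pass the test with all libraries. Cyp2j5, the most abundant, read 99.1, 103, 111, 104 and 70.9 FPKM in the controls and 71.9, 82.5, 88.0, 77.2 and 79.6 FPKM in the labelled knockdown libraries. Controls 1 to 4 were above every labelled knockdown library and control 5 below them all. The log2 fold change was -0.27 (SE 0.12, adjusted p = 0.128), and -0.38 without control 5 (adjusted p = 0.0154). Cyp2j6, at 16.4 ± 0.619 and 13.9 ± 1.43 FPKM, was the 1 tested P450 gene whose labelled knockdown values all lay below the controls (2.33%, against 7.48% of all tested genes; without control 5 Cyp2j5 was added, 4.65% against 10.5%), but its log2 fold change of -0.23 missed the threshold (adjusted p = 0.0644). Cyp2j9, at 0.941 ± 0.180 and 1.97 ± 1.10 FPKM, missed it too (0.55, adjusted p = 0.0722).

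The other family 2 genes that were tested had 1 gene each. Cyp2r1, the vitamin D 25-hydroxylase, read 2.65, 4.57, 5.03, 5.39 and 2.02 FPKM against 2.23, 2.96, 3.00, 2.71 and 2.07 FPKM, with a log2 fold change of -0.40 (adjusted p = 0.177) that was -0.57 without control 5 (adjusted p = 0.0374). Cyp2u1, which hydroxylates long-chain fatty acids, stood at 0.981 ± 0.200 and 1.83 ± 0.851 FPKM (0.48, adjusted p = 0.0690). Cyp2g1 stood at 0.366 ± 0.162 and 0.627 ± 0.144 FPKM (0.26, adjusted p = 0.0935).

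The Cyp3a genes, which oxidise steroids, bile acids and many drugs, went both ways. Cyp3a25 read 145, 81.2, 78.9, 66.9 and 137 FPKM in the controls and 192, 285, 164, 140 and 139 FPKM in the labelled knockdown libraries. Control 1 was above the 2 lowest labelled knockdown libraries, and control 5 was just below them. The log2 fold change was 0.86 (SE 0.25, adjusted p = 0.0390). The call was lost in 7 of 10 fits that left out 1 library, with adjusted p of 0.0893, 0.0865 and 0.0837 without control 2, 3 and 4 and of 0.0787, 0.0741, 0.0644 and 0.0506 without labelled knockdown 1, 2, 3 and 5, and also with quantile normalization (0.0548), without the filter (0.108) and when the length trend was removed (0.0526). Cyp3a25 shares 11.2% of its 75-base stretches with Cyp3a59, which stood at 9.50 ± 6.56 and 11.3 ± 4.13 FPKM (log2 fold change 0.40, adjusted p = 0.487, and 0.68 without control 5, adjusted p = 0.155).

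Cyp3a13 read 24.4, 22.5, 33.6, 29.6 and 34.8 FPKM in the controls and 17.7, 25.1, 20.8, 18.2 and 21.6 FPKM in the labelled knockdown libraries. Labelled knockdown 2 lay above 2 controls and the other 4 lay below them all. The log2 fold change was -0.46 (SE 0.13, adjusted p = 0.0393), and the call was lost without control 3, 4 or 5 (adjusted p = 0.0899, 0.0769 and 0.0661), without labelled knockdown 1, 3, 4 or 5 (0.0849, 0.0706, 0.0652 and 0.0636), with median-of-ratios scaling (0.0866) or quantile normalization (0.0594), without the filter (0.0950) and when the length trend was removed (0.111). No 75-base stretch of Cyp3a13 was shared with another gene.

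Cyp3a11, the most abundant Cyp3a gene and the usual mouse readout of PXR, read 419, 452, 375, 415 and 542 FPKM in the controls and 461, 568, 323, 453 and 236 FPKM in the labelled knockdown libraries, whose range contained every control. Its log2 fold change was -0.16 (SE 0.21, adjusted p = 0.620), and -0.09 without control 5. Cyp3a44, another gene with a higher level in female liver, read 1.44, 0.274, 0.694, 0.535 and 34.7 FPKM in the controls and 5.92, 2.32, 3.56, 3.59 and 1.35 FPKM in the labelled knockdown libraries. Control 5 was 47.2-fold above the mean of the other controls. The log2 fold change was 0.39 (adjusted p = 0.755), and 1.28 without control 5 (adjusted p = 0.0188).

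**Figure D3:**
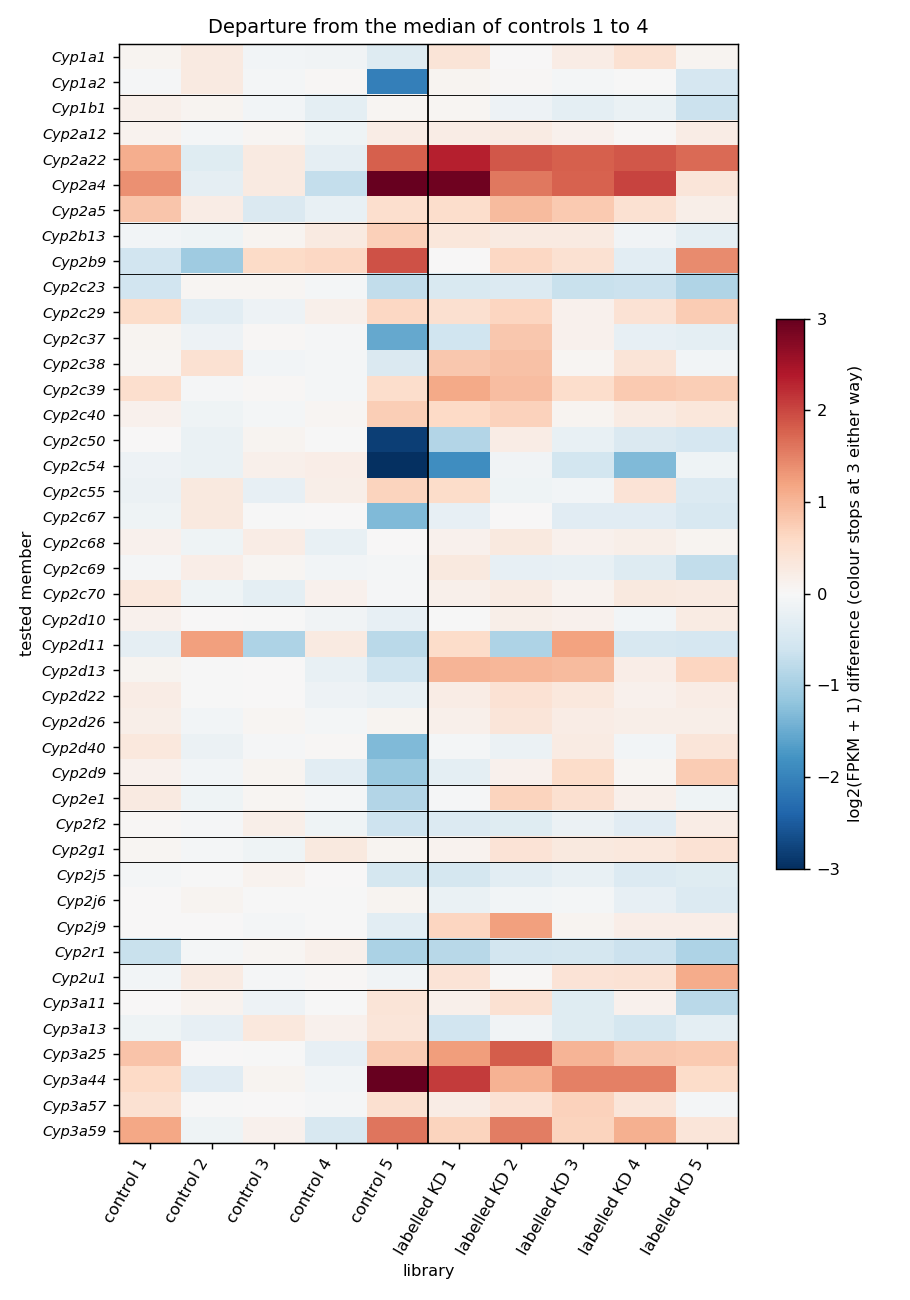
Each row is a tested P450 gene and each column a library, and colour gives the difference in log2(FPKM + 1) from the median of controls 1 to 4, stopping at 3 in either direction. Control 5 holds the strongest colours, low for Cyp2c54, Cyp2c50 and Cyp1a2 and high for Cyp2a4 and Cyp3a44.

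The 8 genes listed as higher in female mouse liver (Cyp2a4, Cyp2b9, Cyp2b13, Cyp2c40, Cyp2c69, Cyp2g1, Cyp3a16 and Cyp3a44) summed to 482 FPKM in control 5, against 22.7 to 48.5 FPKM in the other controls and 69.2 to 121 FPKM in the labelled knockdown libraries. These sums rest largely on Cyp2a4 and Cyp2b9. Not every gene of the class was high in control 5: Cyp2c69 and Cyp2g1 lay within the range of the other controls, and Cyp3a16 was at 0. Of the 7 tested genes, 5 had a fold change above 0 with all libraries. With control 5 left aside, the labelled knockdown sums were all above the control sums; of the 7 tested genes of this class limma called 0 with all libraries (1 with an unadjusted p under 0.05) and 1, Cyp3a44, without control 5. All 10 libraries held Y-linked transcripts, with 7.90 to 11.3 FPKM of Ddx3y and at most 0.0189 FPKM of Xist. Transcripts known for a higher level in male liver, chosen after their values were seen, were low in control 5: Mup7 at 0.339 FPKM, against 61.8 to 396 FPKM elsewhere, and Slco1a1 at 0.313 FPKM, against 4.62 to 21.7 FPKM elsewhere.

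The summed level of 12 markers of the cells around the central vein, none of them a P450 gene, was also low in control 5. It was 785 FPKM there and 1403 to 1834 FPKM in the other 9 libraries. The sum does not show that every pericentral gene was low there. Glul, glutamine synthetase, read 94.5 FPKM in control 5 and 266 to 421 FPKM elsewhere. Cps1, the first enzyme of the urea cycle and a periportal gene, was highest there, at 520 FPKM. The summed level of the 10 periportal markers, Cps1 among them, was 2416 FPKM in control 5 and 1545 to 2358 FPKM elsewhere. Cyp2f2, also known for its periportal level, went the other way and was lowest in control 5, at 169 FPKM, against 197 to 303 FPKM elsewhere. In bulk RNA, fewer cells of a type and less RNA per cell cannot be told apart.

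Summed by subfamily, no group of controls was separated from the labelled knockdown libraries. Cyp2d summed to 974 ± 89.9 and 1149 ± 88.9 FPKM, a log2 ratio of means of 0.24, and Cyp2j to 115 ± 15.3 and 95.8 ± 6.97 FPKM, a ratio of -0.26. These ratios were 0.20 and -0.34 without control 5. Cyp2a summed to 427 ± 217 and 471 ± 66.6 FPKM (0.14, and 0.48 without control 5), Cyp2c to 684 ± 119 and 707 ± 85.0 FPKM (0.05 and -0.06), and Cyp3a to 589 ± 109 and 629 ± 186 FPKM (0.09 and 0.21). The Cyp1a ratio turned from 0.11 to -0.13 and the Cyp2b ratio from -0.11 to 0.52 without control 5.

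**Figure D4:**
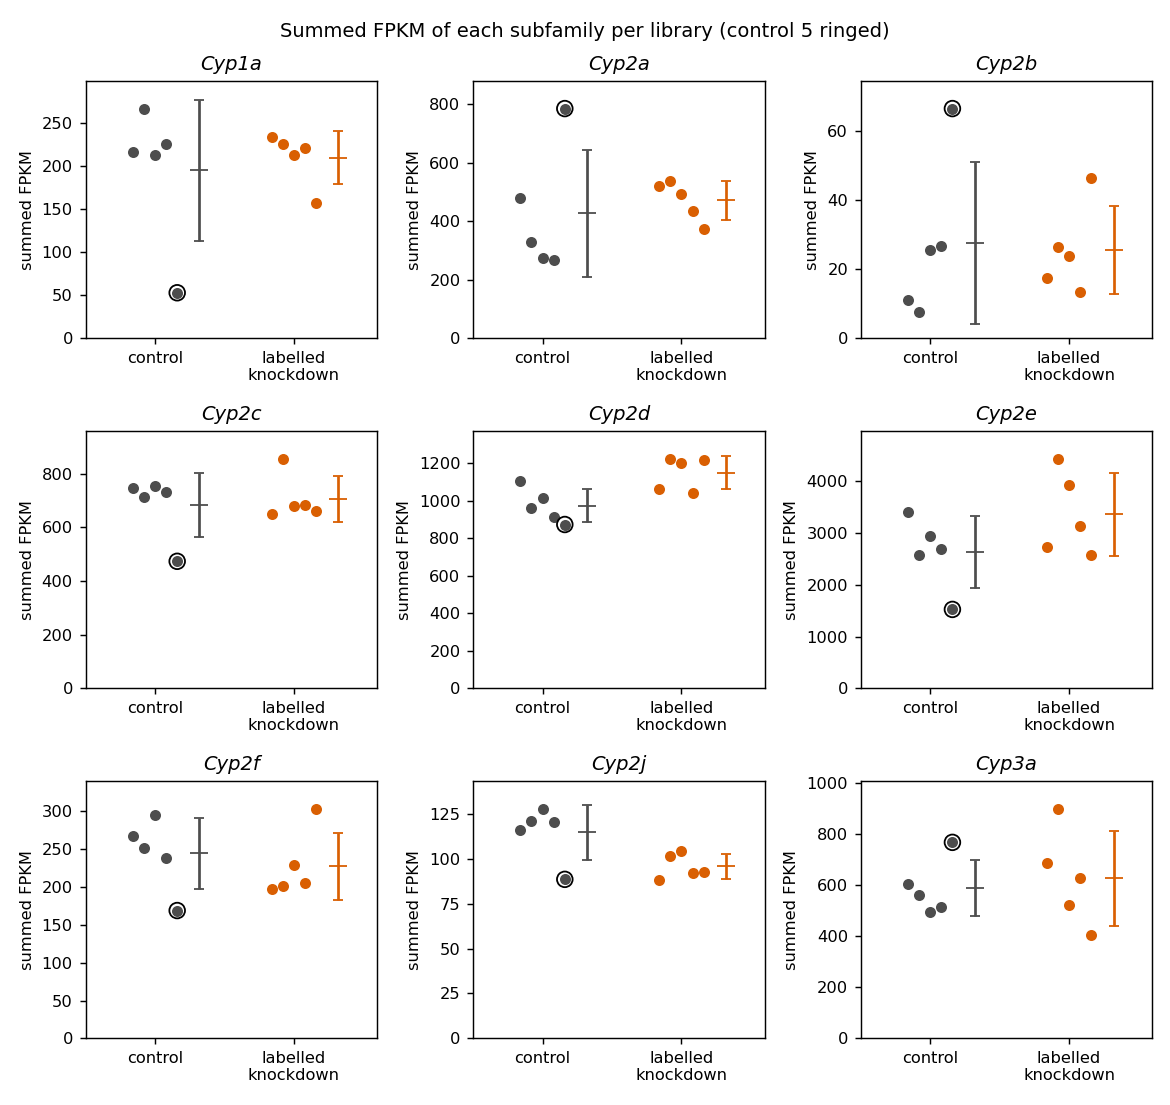
Summed FPKM of 9 subfamilies in each library, with controls in grey, labelled knockdown libraries in orange, control 5 ringed, and the mean ± SD (n = 5) beside the points. Control 5 is the highest control for Cyp2a, Cyp2b and Cyp3a and the lowest for Cyp1a, Cyp2c, Cyp2d, Cyp2e, Cyp2f and Cyp2j.

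The genes that serve P450 enzymes were read from lists. Of 8 genes of electron transfer, 2 rose, with a list median of -0.03 (2 rose and 1 fell without control 5). Cyb5a, cytochrome b5, read 147, 137, 141, 160 and 136 FPKM against 199, 210, 196, 168 and 167 FPKM, without overlap, and rose by 0.38 on the log2 scale (SE 0.09, adjusted p = 0.0206; 0.0548 without control 2, 0.0508 without control 3 and 0.0590 with the length trend removed). Fdxr, ferredoxin reductase, which serves the mitochondrial P450 enzymes, rose from 10.2 ± 0.546 to 14.2 ± 2.06 FPKM (0.43, adjusted p = 0.0166). Por, the reductase that serves families 1 to 3, stood at 49.8 ± 12.7 and 45.8 ± 8.09 FPKM (-0.10, adjusted p = 0.71).

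Of 12 genes of haem synthesis and breakdown, 3 rose and 2 fell, with a list median of 0.05 (2 and 2 without control 5). The synthesis enzyme Ppox, at 5.81 ± 0.572 and 8.01 ± 0.747 FPKM, rose by 0.41 on the log2 scale (adjusted p = 0.0130). Hmox1, the haem oxygenase, fell from 45.9 ± 9.75 to 29.7 ± 5.45 FPKM (-0.60, adjusted p = 0.0242; 0.0590 without control 3 and 0.0543 without labelled knockdown 5). Alad, an early synthesis enzyme, had a log2 fold change of 0.36 (adjusted p = 0.0361) and Fech, which inserts the iron, of -0.29 (0.0286), and each of these calls was kept in 4 of 10 fits that left out 1 library. The Fech call was also lost with the length trend removed (0.147).

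Of 17 tested regulators of P450 transcription, 2 rose and 5 fell, with a list median of -0.07 (2 and 6 without control 5). Nr1i3, which encodes CAR, read 29.6, 18.7, 28.6, 21.5 and 10.2 FPKM in the controls and 53.7, 82.5, 51.4, 34.0 and 36.3 FPKM in the labelled knockdown libraries, without overlap, and rose by 1.22 on the log2 scale (SE 0.29, adjusted p = 0.0208). Among the 9 tested P450 genes listed as inducible by CAR or PXR, 1 rose, Cyp3a25, 1 fell, Cyp3a13, and the summed levels of that class overlapped between groups, at 857 to 1132 FPKM and 780 to 1510 FPKM. Nr1i2, which encodes PXR, stood at 22.0 ± 3.02 and 21.1 ± 3.11 FPKM (-0.06, adjusted p = 0.777).

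Hnf4a read 91.2, 88.5, 93.8, 81.3 and 77.8 FPKM in the controls and 61.9, 67.0, 63.4, 66.7 and 62.5 FPKM in the labelled knockdown libraries, without overlap, and fell by 0.42 on the log2 scale (SE 0.07, adjusted p = 0.00944). Rxra, the partner of CAR and PXR, fell from 43.9 ± 5.61 to 29.8 ± 5.29 FPKM (-0.55, adjusted p = 0.0200; 0.0674 with the length trend removed). Ppara, the fatty acid receptor, fell from 8.88 ± 2.0 to 4.90 ± 1.48 FPKM (-0.75, adjusted p = 0.0224; 0.0545 without control 3 and 0.0506 without labelled knockdown 5). The calls of Nr1i3, Hnf4a and Rxra, like those of Fdxr and Ppox, held whichever of the 10 libraries was left out, but without the filter those of Nr1i3 (adjusted p = 0.0630) and Rxra (0.0505) were lost.

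In 23 tested genes of the other P450 families, 1 rose and 3 fell, with a list median of 0.07 (0 and 3 without control 5). Cyp26a1, which breaks down retinoic acid, had a log2 fold change of 0.84 (adjusted p = 0.0400), Cyp4v3, a fatty acid hydroxylase, of -0.41 (0.0271), Cyp20a1 of -0.34 (0.0329) and Cyp39a1, an oxysterol hydroxylase, of -0.40 (0.0448). These calls were kept in 2, 5, 1 and 1 of the 10 fits that left out 1 library, and those of Cyp26a1, Cyp4v3 and Cyp39a1 were lost with the length trend removed (adjusted p = 0.0512, 0.0815 and 0.103).

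Markers of liver cells differed beside these results. Of 10 tested periportal markers 4 fell (3 fell and 1 rose without control 5), among them Cps1, from 403 ± 66.7 to 245 ± 30.5 FPKM, and Ass1, from 628 ± 91.9 to 402 ± 37.8 FPKM (adjusted p = 0.00944 for each), while of 12 pericentral markers limma called 0 (1 with an unadjusted p under 0.05) and 10 were above 0. The summed periportal level was 1699 to 2416 FPKM in the controls and 1545 to 1806 FPKM in the labelled knockdown libraries. Of 6 tested Kupffer cell markers 2 fell, with sums of 126 to 204 FPKM and 89.8 to 134 FPKM. Of 7 stellate markers 1 fell, with sums of 42.8 to 57.9 FPKM and 23.8 to 52.3 FPKM, and of 6 sinusoidal endothelium markers 1 fell, with sums of 14.6 to 24.5 FPKM and 12.6 to 17.5 FPKM. Of 5 tested cholangiocyte and 6 lipid-associated macrophage markers limma called 0 (1 and 0 with an unadjusted p under 0.05), with all 5 and 5 of 6 below 0. The cholangiocyte sums were 128 to 373 FPKM and 42.6 to 301 FPKM, and the macrophage sums 269 to 603 FPKM and 134 to 434 FPKM. These sums are not separate readings, because Spp1 is in both lists, at 118 to 340 FPKM and 39.0 to 280 FPKM. It made up most of the cholangiocyte sums and much of the macrophage sums, and the macrophage list also holds Lgals3. The part of these cells in the P450 results was not tested.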

How the data were processed

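Liver RNA of 5 control and 5 labelled knockdown mice was measured; titles of the samples gave group and replicate number, and nothing else in the labels separates the libraries. Reads were processed with cutadapt 1.9, HISAT2 2.0.4 and StringTie 1.3.4d, per the submitters' processing notes. Those notes name a human build, GRCh38, while the deposited identifiers are mouse Ensembl identifiers, so the build behind the values is not known; coordinates here are those of RefSeq on GRCm38.p6. Per the file headers, FPKM was deposited for each library. Beside it stand the authors' deposited fold ratio of group means, the log2 value of that deposited ratio, and a p-value with its q-value from the authors, by a test not named in the sources used here.

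Genes with at least 0.5 FPKM in at least 5 libraries were kept (13471 of 29657, and 43 of the 54 P450 genes). Values were taken as log2(FPKM + 1), which understates the change of low genes, and the groups were compared by limma 3.58.1 (R 4.3.3), fitting a mean-variance trend without covariates. The p-values are two-sided and Benjamini-Hochberg adjusted over all tested genes, with a threshold of 0.05. Lgals3 was also compared by an exact permutation test of FPKM. The fit was tested on simulated data. No source says more of the replicates than their number, and p-values measure only the spread between these libraries. Shared 75-base stretches and lengths came from GENCODE M21, and promoters from RefSeq, which held 46 of the 54 genes.

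The P450 genes and the lists (electron transfer, haem, regulators, other P450 families, classes of P450 genes, and liver cell types) were chosen with earlier results of these data known. The genes described are those past the test, the highest of each subfamily, those with a mean of at least 50 FPKM, and up to 4 called genes of each list by smallest p; others are given by range or were chosen after their values were seen. Alternatives were other pseudocounts, filters, scalings, array weights, a replicate block, removal of the length trend, and leaving out each library.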

Additional observations from a re-analysis of the deposited data

Results flagged for a closer look

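Within a group of 5, a sample was singled out where, on the log2(FPKM + 1) scale of the tests, its gap to the nearest other sample exceeded 0.71 of the group's range (Dixon's 95% value). Of 128 groups of values checked this way, 13 held such a sample, where chance alone gives about 1 in 20. All groups come from the same libraries, and some of the genes were chosen with their values known. The checks are therefore not independent, and the count is no test against chance. Control 5 was singled out in 10 of the 13. It was low for Cyp1a2 (52.5 FPKM), Cyp2c37 (17.9 FPKM), Cyp2c50 (17.7 FPKM), Cyp2c54 (0.495 FPKM), Cyp2c67 (33.7 FPKM), Cyp2j5 (70.9 FPKM), Cyp2j9 (0.627 FPKM) and the pericentral gene Glul (94.5 FPKM). It was high for Cyp3a44 (34.7 FPKM) and the periportal gene Cps1 (520 FPKM). Cyp2a4 in control 5 (371 FPKM) did not exceed that value on the log2 scale.

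In the labelled knockdown group, library 5 was low for Cyp1a2 (156 FPKM). Library 1 was high for Cyp2a22 (43.9 FPKM) and low for Cyp4v3 (44.9 FPKM).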

How the results depend on the processing

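Over all genes, 960 were called higher and 1300 lower; without a filter these were 511 and 682, the lower count was 2047 with array weights and 720 with the length trend removed, and leaving out 1 library gave 442 to 966 and 549 to 1736. Of the P450 genes, 4 were called higher and 1 lower. The higher count was 1 without a filter and 1 to 5 with 1 library left out. The lower count was 0 without a filter, with median-of-ratios scaling, with quantile normalization and with the length trend removed, 3 with array weights, and 0 to 3 with 1 library left out. Leaving out a library or the filter changes the number of libraries or genes tested; otherwise the cause was not tested.

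With array weights, the log2 fold change turned to 0.067 for Cyp2b13, -0.012 for Cyp2c50 and -0.32 for Cyp2c54. Leaving out 1 library turned the sign of further uncalled genes: Cyp1a2 (-0.14 to 0.43), Cyp2b9 (-0.19 to 0.55), Cyp2b13 (-0.15 to 0.061), Cyp2c37 (-0.018 to 0.42), Cyp2c50 (-0.33 to 0.39), Cyp2c54 (-0.80 to 0.34), Cyp2c55 (-0.20 to 0.052), Cyp2c67 (-0.32 to 0.084), Cyp2d11 (-0.24 to 0.40), Cyp3a11 (-0.30 to 0.018), Nr1i2 (-0.11 to 0.031), Por (-0.22 to 0.028) and Lgals3 (-0.093 to 0.26). No called gene named in the text changed sign under any alternative that was run.

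Replicate numbers were shared by the groups, but same-numbered libraries did not deviate together throughout (correlations of 0.11, 0.02, 0.08, -0.01 and 0.05), and 1 of 5 correlated best with its own number. Small correlations cannot show that the mice were unpaired, but the labels name no pairs, and the main fit used none. With the replicate block, 769 genes were called higher and 986 lower, and of the P450 genes 5 and 0.

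FPKM carries no depth, so precision rests on the spread between 5 mice.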

Other observations

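The P450 genes that the authors' deposited table marks as significant are Cyp2j9, with an authors' fold ratio of 2.09, and Cyp3a16, with 1160 in the authors' deposited table. Cyp3a16 was above 0 in 1 library, labelled knockdown 2, at 0.580 FPKM. For Cyp2a4 and Cyp3a44 the authors' deposited log2 ratios are -0.95 and -1.17, while the differences of mean log2(FPKM + 1) computed here are 0.61 and 0.39; in both genes control 5 is the highest library.

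Control 1 lay above controls 2 to 4, on the side of control 5, for several of the same genes. Cyp2a22 read 17.9 FPKM in control 1 and 5.87 to 9.65 FPKM in controls 2 to 4, Cyp3a25 read 145 and 66.9 to 81.2 FPKM, and Cyp3a59 read 13.7 and 3.72 to 6.19 FPKM. Cyp2a4 read 28.9 and 6.10 to 13.1 FPKM. These genes were chosen after their values were seen, and no test was made.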
